A study of Mus musculus with 32 samples.

Results

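The subject here is the GABA-A receptor in the frontal cortex (FCtx) of ethanol-drinking mice, followed through 7 subunit genes named by symbol: Gabra2, Gabra3, Gabra4, Gabra5, Gabrb1, Gabrb2 and Gabrd. Every probe of the deposited table carrying 1 of these symbols was taken. Gabra2 was not analysed here because no probe carried its symbol, and the other 6 genes had 8 probes, out of 25697 probes and 18138 gene symbols in all. 5 of the 8 probes, from 4 genes, gave enough signal to be tested, out of 10187 tested probes from 7926 genes.

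Messenger RNA was measured mouse by mouse on Illumina bead arrays of the type MouseRef-8 v2.0, where many beads read each 50-base probe. The 20 ethanol-treated mice chose freely between water and 20% ethanol in daily sessions for 20 days, and the 12 controls had no ethanol. All were female F1 hybrids of the strains C57BL/6J and FVB/NJ with no transgene or deletion; the labels name 1 direction of the cross, the Methods name both, and the age at drinking was not given in the sources used here. Each array is a different mouse, and the dissected piece was a frontal slab of cortex with its olfactory bulbs removed.

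Treatment was not spread evenly over the 4 chips. Chips 1 and 2 each held 8 ethanol-treated mice, chip 4 held 8 controls, and chip 3 held 4 of each, its ethanol-treated mice filling the odd places (A, C, E, G) and its controls the even places (B, D, F, H). Ethanol and control arrays could therefore be compared on the same chip only on chip 3, where treatment and odd or even position cannot be told apart. The arrays detected 9480 to 11544 probes each, and the array of control C66 on chip 4 had the fewest. The median signal was 146 to 168 on chip 4 and 166 to 203 on the other chips. Every pair of arrays correlated between 0.977 and 0.995 over the tested probes. Markers of excitatory cortical neurons were measured for 8 of 10 listed genes and those of astrocytes for 9 of 10, whereas of 6 cerebellar granule cell genes Gabra6, Cbln3 and En2 were detected on no array, Neurod1 on 1, Zic2 on 2 and Zic1 on all 32. Fewer cells of a type and less RNA per cell cannot be told apart in such whole-tissue RNA.

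GABA-A receptors are chloride channels built of 5 subunits around a central pore and carry most of the fast inhibition in the brain. Alpha subunits form the GABA and benzodiazepine sites together with beta and gamma subunits, beta subunits carry the other face of the GABA site and are needed for the receptor to reach the membrane, and the delta subunit replaces gamma in receptors outside the synapse that carry tonic inhibition. Ethanol enhances inhibition through these receptors, and repeated ethanol exposure is known to shift the subunits that neurons make.

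The probe sequences come first because 3 of the 8 gave no signal above background. They are given 5′ to 3′ as in the deposited table, with G and C in capitals. The probes for beta 1 and the first of the pair for delta lie in coding sequence and are shown whole. The Gabrb1 probe covers the membrane-spanning segment that lines the pore and spans an exon junction in the table's own probe coordinates, and the Gabrd probe covers the last membrane-spanning segment.
Gabrb1, probe from base 809 of the transcript: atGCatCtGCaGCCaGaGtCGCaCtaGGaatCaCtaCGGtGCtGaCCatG
Gabrd, probe from base 1376: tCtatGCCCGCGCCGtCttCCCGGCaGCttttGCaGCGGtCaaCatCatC

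For the other probes the first 30 bases are shown. The opening 3 are the probes that were read on most or all arrays.
Gabra3, probe from base 2228: GtttCttGCCttGGaGGtCaGtGGGGGaCa
Gabrb2, probe from base 3608: taGGGtCCCCaGttaaGtGtataGGGGtCa
Gabrd, probe from base 1540: atGGGaCaGaGaGGaGGCtCGGCttCttGG
Gabra4, probe from base 2137, detected on 0 arrays: GaaatCaGaaaGtCtaatGtaattttGttG
Gabra5, probe from base 2358, detected on 0 arrays: ttCaaaGttaattttGGttttGGtGGaaaa
Gabrb2, probe from base 7347, detected on 0 arrays: GGaCttCtaaaaatCtCtGGGataCatGCG

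The capitals thin out in the last 3 sequences. Over their 50 bases the probes for Gabra4 and Gabra5 each held 12 G or C, and the later Gabrb2 probe held 19. The 5 probes that were read held 24 (Gabrb2), 25 (Gabra3), 27 (Gabrb1), 27 (Gabrd, base 1540) and 30 (Gabrd, base 1376). Across the whole array, 7 of 1188 probes with 17 or fewer G or C (0.589%) were detected on at least 24 arrays, and 96.4% of them were detected on none. Of probes with 18 to 20 such bases 14.5% passed, and of those with 27 or more 45.5% passed. Base composition moved with detection over all genes, and its part in the silence of these 3 probes was not tested.

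Gabra4, the alpha subunit that often partners delta outside the synapse, had a signal of 133, 169 and 194 at the lowest, median and highest of the 32 arrays. Gabra5, best known from extrasynaptic receptors of the hippocampus, read 127, 151 and 199. The later Gabrb2 probe read 126, 164 and 191. These signals lay between 0.749 and 1.06 times the median of all probes on the same array, and the lowest detection p-values were 0.0201, 0.0927 and 0.0276. These 3 probes were not above background on any array, so no ethanol difference of the alpha 4 or alpha 5 subunit is given. The 3 probes entered only the alternative fits without a detection filter, which took all 8 subunit probes.

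**Figure D1:**
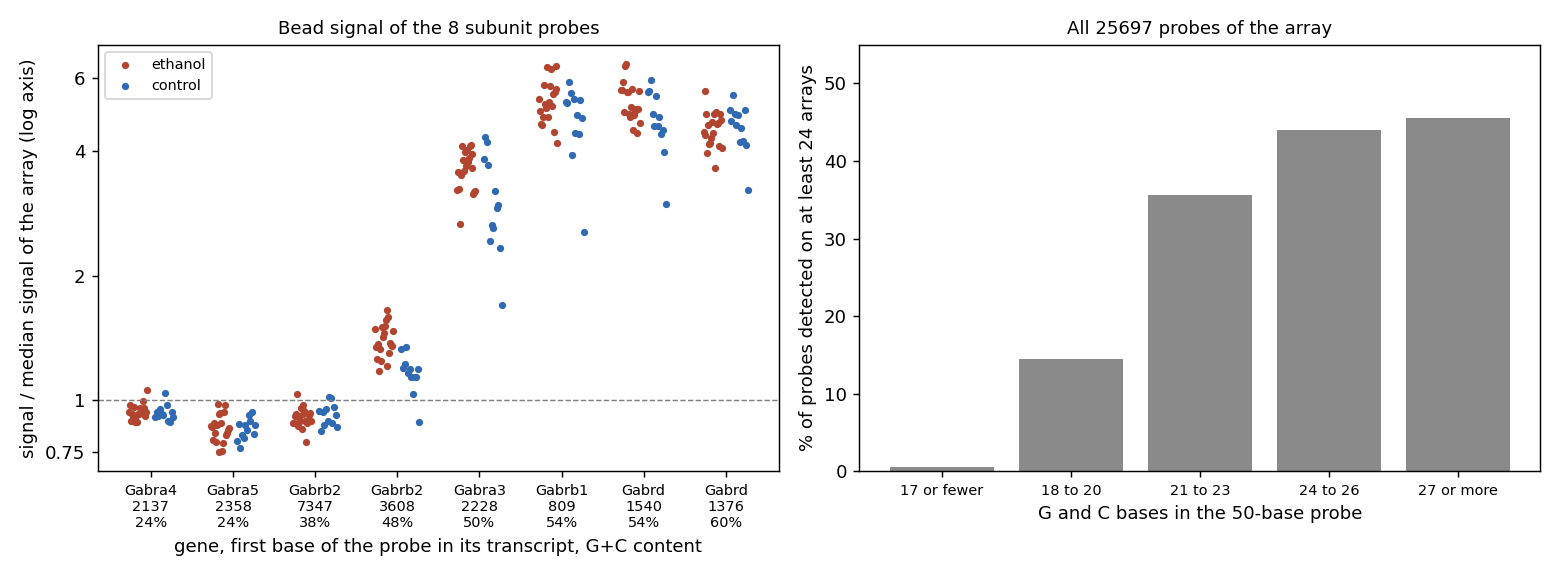
Left, signal of each of the 8 subunit probes divided by the median signal of its array (log axis), with 1 point per array and red for ethanol-treated mice and blue for controls; the probes for Gabra4, Gabra5 and Gabrb2 at base 7347 stay between 0.749 and 1.06. Right, percentage of all 25697 probes detected on at least 24 arrays by number of G and C bases, from 0.589% for 17 or fewer to 45.5% for 27 or more.

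For the comparisons, signals were put on a variance-stabilized log2 scale and quantile normalized, and a probe was called at a false discovery rate (FDR) below 1% in limma, adjusted over all 10187 tested probes. Over all arrays 1 of the 5 subunit probes was called, that of Gabrb2, and it was higher in ethanol-treated mice; 8.18% of all tested probes were called in the same comparison. At an FDR below 10% there were 2 of 5 (Gabrb2 and Gabra3), where the share of all tested probes was 25.3%. With chip as a random block the Gabra3 difference was 0.082 (adjusted p = 0.51 in limma), which is short of 10% as well. The median difference over the 5 probes was 0.066 on the log2 scale, and over all tested probes it was -0.0026.

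Gabra3 encodes the alpha 3 subunit, abundant in developing and deep cortical layers and in monoaminergic neurons. Its level in ethanol-treated mice was 9.14 at the lowest, 9.50 at the median and 9.62 at the highest, and in controls it was 9.04, 9.30 and 9.69. The groups overlapped: 18 of 20 ethanol-treated mice lay above the control median and 0 above every control. The means were 9.47 ± 0.13 (SD, n = 20) and 9.31 ± 0.22 (SD, n = 12), a difference of 0.16 with a standard error of 0.057 and an adjusted p of 0.045 in limma, which missed the 1% threshold.

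The wide spread of the controls lay between chips. Mean Gabra3 was 9.55 ± 0.11 in the 4 controls of chip 3 and 9.18 ± 0.13 in the 8 controls of chip 4, and all 4 of the former lay above all 8 of the latter. This difference of 0.37 between mice of the same treatment (standard error 0.067, adjusted p = 4.4e-04 in limma) was larger than that between treatments over all arrays, and 6.52% of all tested probes were called between these sets of controls. Ethanol-treated mice read 9.44 ± 0.15 on chip 1, 9.55 ± 0.061 on chip 2 and 9.36 ± 0.088 on chip 3. Against the controls of chip 4, the 16 ethanol-treated mice of chips 1 and 2 were higher in Gabra3 by 0.31 (standard error 0.048, adjusted p = 1.4e-05 in limma), and 13 of them lay above every chip 4 control. In that comparison 15.2% of all tested probes were called.

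On chip 3 the order of Gabra3 turned round. The 4 controls read 9.47, 9.69, 9.60 and 9.45, and the 4 ethanol-treated mice 9.47, 9.27, 9.31 and 9.37. 3 of the 4 ethanol-treated mice lay below every control, and the mean was lower by 0.20 (95% interval -0.36 to -0.041), with an adjusted p of 0.14 in limma. The chip 3 difference and the difference of chips 1 and 2 from chip 4 were themselves apart by -0.51 (standard error 0.091, adjusted p = 8.3e-04 in limma), and of the 5 probes Gabra3 alone was called in this comparison, against 3.6% of all tested probes. The sign of the Gabra3 difference therefore depended on which chips were compared.

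Lists of marker genes also differed between these arrays. The level averaged over 6 of 14 listed olfactory bulb genes was 9.30 in the chip 3 controls (9.18 to 9.39), 9.60 in the chip 3 ethanol-treated mice (9.48 to 9.65) and 9.51 in the chip 4 controls (9.14 to 9.89). In ethanol-treated mice it was 9.46 on chip 1 (9.13 to 9.73) and 9.56 on chip 2 (9.23 to 10.11), where mean Gabra3 was 9.44 and 9.55. Among the bulb markers Dlx1 and Ptn were detected on 32 arrays, Trh on 30, Doc2g on 27, Th on 25, Sp8 on 24 and Pbx3 on 20. Islr was detected on 9, Eomes on 8, and Synpr, Tbx21 and Shisa3 on 0, 1 and 1 arrays.

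The level over 9 of 12 listed interneuron genes was 11.24 in chip 3 controls (11.14 to 11.31), 11.50 in chip 3 ethanol-treated mice (11.46 to 11.53), 11.42 in chip 4 controls (11.22 to 11.55), and 11.39 (11.20 to 11.49) and 11.41 (11.25 to 11.55) in ethanol-treated mice of chips 1 and 2. The level over 9 of 10 oligodendrocyte genes was 10.79 in chip 3 controls (10.51 to 11.15), 10.48 in chip 3 ethanol-treated mice (10.40 to 10.58), 10.60 in chip 4 controls (10.32 to 10.85), and 10.62 (10.39 to 11.44) and 10.72 (10.54 to 11.01) on chips 1 and 2. The oligodendrocyte average was thus highest in the chip 3 controls, with ranges that overlapped. The part of these differences in the Gabra3 values was not tested.

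Gabrb1 encodes beta 1, the beta subunit whose mutation is known to raise ethanol intake in mice. Its level was 9.71, 9.96 and 10.17 (lowest, median, highest) in ethanol-treated mice and 9.56, 9.90 and 10.03 in controls. The ranges overlapped, with 3 of 20 ethanol-treated mice above every control, and the means of 9.93 ± 0.13 and 9.87 ± 0.13 differed by 0.065 (95% interval -0.026 to 0.16, adjusted p = 0.33 in limma). On chip 3 the controls read 9.86, 9.94, 10.03 and 9.94 and the ethanol-treated mice 10.01, 9.96, 10.15 and 9.71. The difference there was 0.013 with an interval of -0.16 to 0.19, so a change of either sign within these bounds could not be seen. Gabrb1 passed in none of the 8 comparisons made in limma, and its unadjusted p was lowest, at 0.076, for chips 1 and 2 against chip 4.

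Gabrb2 encodes beta 2, the beta subunit of the most common receptor of the adult brain. Its level at the probe from base 3608 was 8.37, 8.48 and 8.66 (lowest, median, highest) in ethanol-treated mice and 8.12, 8.37 and 8.46 in controls. All 20 ethanol-treated mice lay above the control median and 14 lay above every control. Gabrb2 rose from 8.35 ± 0.087 (SD, n = 12) to 8.50 ± 0.079 (SD, n = 20), by 0.14 with a standard error of 0.031 and an adjusted p of 0.0014 in limma. The call was lost when chip entered the model as a random block (0.13, adjusted p = 0.037 in limma) and when it entered as a fixed block with position (0.039, adjusted p = 0.90 in limma).

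This Gabrb2 probe was dim. Its signal was 217, 257 and 305 in ethanol-treated mice and 129, 194 and 252 in controls, or 0.884 to 1.65 times the median probe of the same array. It was detected on 30 of 32 arrays, and both arrays that missed it were chip 4 controls (C64 and C66). The difference over all arrays was 0.26 on quantile-normalized log2 signals and 0.68 after normexp background subtraction, against 0.14 on the stabilized scale, so the size of the difference varied with the treatment of background. It lay between 0.039 and 0.68 under the 10 alternative settings that gave a value. An FDR of 10% and the lack of a detection filter cannot alter this estimate, and all settings drew on the same chips.

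Gabrb2 was also the only subunit probe whose normalized values on chip 3 did not overlap. The chip 3 controls read 8.44, 8.37, 8.38 and 8.46 and the ethanol-treated mice 8.49, 8.47, 8.46 and 8.56. The gap was narrow, with control C56 at 8.457 and ethanol-treated A49 at 8.463. In bead signal before normalization the groups overlapped, with C56 (252) above A46, A49 and A50 (each 244). The difference of 0.082 (95% interval -0.033 to 0.20) was not called (adjusted p = 0.44 in limma), and 7.58% of all tested probes were likewise higher without overlap on this chip. Chips 1 and 2 against chip 4 gave 0.17 (standard error 0.035, adjusted p = 3.6e-04 in limma), with 14 of 16 ethanol-treated mice above every chip 4 control. The gap between that value and the chip 3 value was -0.093, with an interval of -0.23 to 0.042. Controls of chip 3 and chip 4 differed in Gabrb2 by 0.089 (interval -0.011 to 0.19, adjusted p = 0.23 in limma). The mean level of 8 excitatory cortical neuron markers was lower in ethanol-treated mice, 11.04 ± 0.042 (10.95 to 11.11) against 11.16 ± 0.056 (11.06 to 11.23). Over all arrays 4 of the 9 probes of this list were called lower in limma, where 8.18% of all tested probes were called. On chip 3 0 of the 9 were called, where 0.147% of all tested probes were. The mean level of the list there was 11.05 (11.008 to 11.100) in ethanol-treated mice and 11.18 (11.101 to 11.232) in controls, without overlap. The 9 differences over all arrays ran from -0.31 to 0.19, and Neurod6 of that list was detected on no array. The part of this list in the Gabrb2 difference was not tested.

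**Figure D2:**
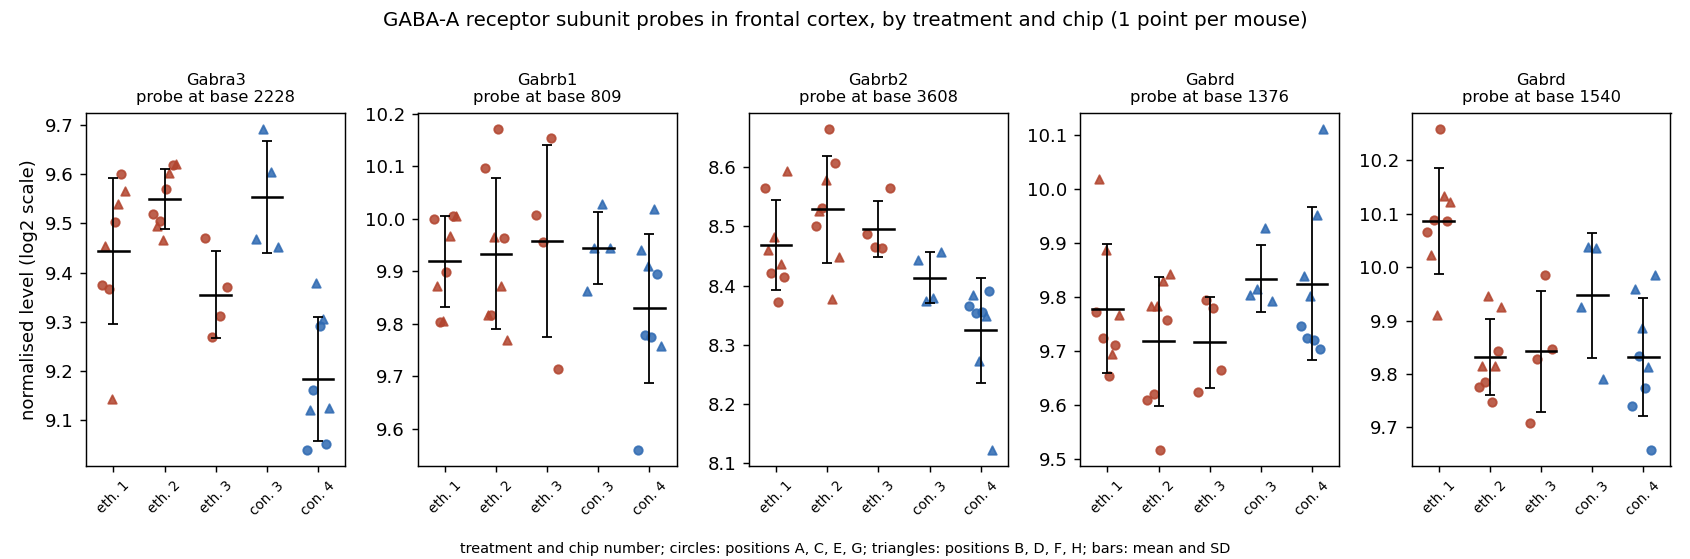
Normalised level (log2 scale, a separate axis per probe) of the 5 tested subunit probes in each of the 32 mice, by treatment and chip, with circles for odd and triangles for even positions and black bars for the mean and SD. Gabra3 is high in the chip 3 controls (mean 9.55) and low in the chip 4 controls (9.18). Only for Gabrb2 does every ethanol-treated mouse of chip 3 lie above every control of that chip, and narrowly (lowest 8.463 against highest 8.457).

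On chip 3 as a whole, 0 of the 5 subunit probes were called at 1% in limma, where 0.147% of all tested probes were, and 0 at 10%, where 6.67% were. At an unadjusted p below 0.05 there was 1 of the 5, Gabra3, and 1994 of all 10187 tested probes. The median of the 5 differences was -0.105 on chip 3 and 0.128 for chips 1 and 2 against chip 4, and over all tested probes it was -0.00044 and -0.0046. In the latter comparison 2 of 5 passed at 1% and 3 at 10% (Gabrd from base 1540 with 0.13, adjusted p = 0.023 in limma), against 35.2% of all tested probes at 10%.

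**Figure D3:**
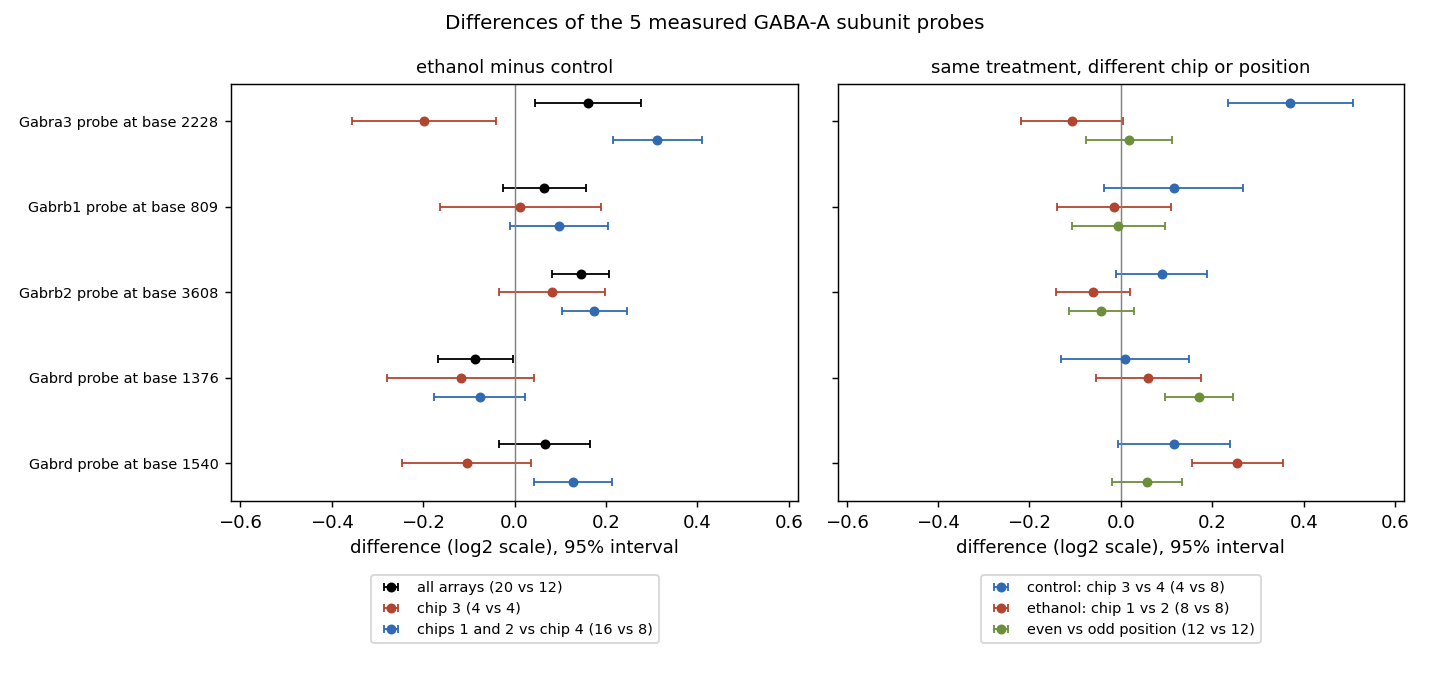
Differences in level (log2 scale, points) with 95% intervals (bars) for the 5 subunit probes. The left panel gives ethanol minus control over all arrays, on chip 3, and for chips 1 and 2 against chip 4; the right panel gives mice of the same treatment on different chips or at different positions. Gabra3 lies at -0.20 on chip 3 and at 0.31 for chips 1 and 2 against chip 4, and its controls differ by 0.37 between chips.

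Gabrd encodes delta, the subunit of tonic, extrasynaptic receptors, and had a pair of tested probes. At the coding probe from base 1376 its level was 9.52, 9.76 and 10.02 (lowest, median, highest) in ethanol-treated mice and 9.70, 9.80 and 10.11 in controls. At the probe from base 1540 it was 9.71, 9.92 and 10.26 against 9.66, 9.86 and 10.04. The groups overlapped at both. The difference was -0.086 (standard error 0.041, adjusted p = 0.14 in limma) at the former and 0.066 (standard error 0.049, adjusted p = 0.38 in limma) at the latter, of opposite sign and both short of the threshold.

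On chip 3 both Gabrd probes were lower in ethanol-treated mice without passing. Controls read 9.80, 9.81, 9.93 and 9.79 at base 1376 and ethanol-treated mice 9.62, 9.79, 9.78 and 9.66. At base 1540 controls read 9.93, 10.04, 10.04 and 9.79 and ethanol-treated mice 9.71, 9.83, 9.99 and 9.85. The differences were -0.12 (95% interval -0.28 to 0.044) and -0.11 (-0.25 to 0.035), and the adjusted p-values in limma were 0.42 and 0.41. With 1 mouse left out in turn they ranged from -0.14 to -0.087 and from -0.16 to -0.060.

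Each Gabrd probe also differed between mice of the same treatment. At base 1376 the level differed by position: over chips 1, 2 and 4, each of which held a single treatment, the 12 mice at even positions read 9.69, 9.83 and 10.11 and the 12 at odd positions 9.52, 9.72 and 9.77. 10 of the 12 even mice lay above every odd mouse. The difference of 0.17 (standard error 0.037, adjusted p = 0.0041 in limma) was called, as were 3.97% of all tested probes, and it was 0.13, 0.18 and 0.20 on chips 1, 2 and 4. Under median scaling in place of quantile normalization it was 0.093 and not called (adjusted p = 0.17 in limma), and the calls over all tested probes went from 404 to 2. On chip 3, where even mice were the controls, the difference of -0.12 became 0.052 with position as a covariate (standard error 0.071, adjusted p = 0.87 in limma). The position term of that fit came from chips 1, 2 and 4, because position and treatment coincide on chip 3. The olfactory bulb list averaged 9.40 at even and 9.61 at odd positions, and the mouse numbers of the labels were higher at even positions; their part in the Gabrd values was not tested.

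At base 1540 the Gabrd level differed by chip. The 8 ethanol-treated mice of chip 1 read 9.91, 10.09 and 10.26 and the 8 of chip 2 read 9.75, 9.81 and 9.95, and 7 of the 8 chip 1 mice lay above every chip 2 mouse. This difference of 0.25 (standard error 0.049, adjusted p = 0.0066 in limma) was called between mice of the same treatment, where 0.255% of all tested probes were. Under median scaling it was 0.16 and not called (adjusted p = 0.26 in limma), and the calls over all tested probes went from 26 to 0. The chip 3 ethanol-treated mice (9.84 ± 0.11), the chip 3 controls (9.95 ± 0.12) and the chip 4 controls (9.83 ± 0.11) lay below the chip 1 mean of 10.09 ± 0.099. Ethanol-treated mice of chip 3 against those of chips 1 and 2 gave 0 subunit calls in limma, as it gave 0% of all tested probes, with an unadjusted p below 0.05 for 2 of the 5 subunit probes (Gabra3 and Gabrd from base 1540) and for 973 of all 10187.

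**Figure D4:**
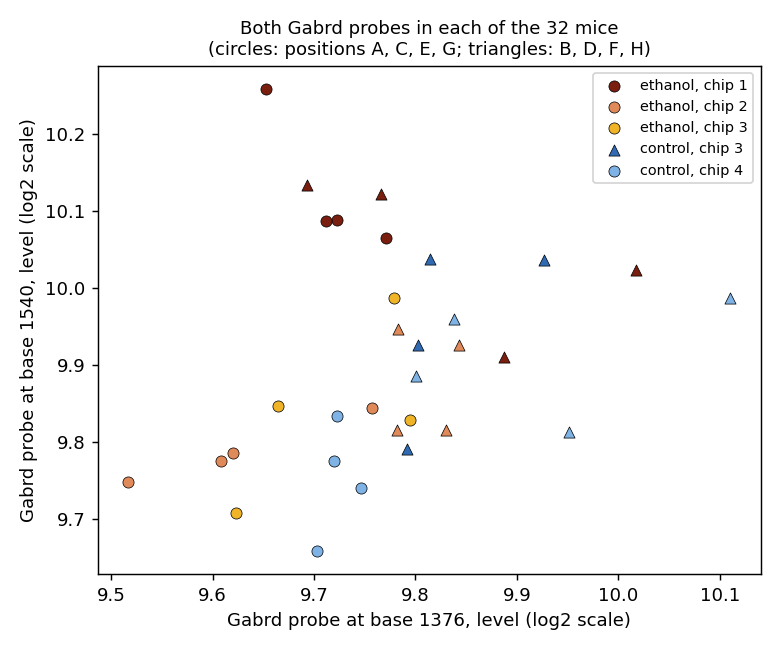
Level at the Gabrd probe from base 1376 (horizontal axis) against the probe from base 1540 (vertical axis), both on the log2 scale, with 1 point per mouse, colours for treatment and chip, circles for odd and triangles for even positions. Triangles lie to the right of circles (means 9.86 and 9.69 over chips 1, 2 and 4), and the chip 1 mice lie at the top (mean 10.09).

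No pair of subunit probes passed a test of varying together from mouse to mouse. With each value centred on its own treatment and chip, 10 pairs of the 5 probes were correlated over 32 mice, with 100000 permutations within those sets, and the lowest p after Benjamini-Hochberg adjustment was 0.15. The pair of Gabrd probes gave Pearson r = 0.30 (permutation p = 0.12, adjusted 0.24), Spearman rho = 0.29, and r = 0.27 without the 2 mice farthest from the median. The lowest value, r = -0.44 for Gabrb2 and Gabrd from base 1376 (permutation p = 0.030, adjusted 0.15), became -0.18 without 2 mice. Gabrb2 and Gabrd from base 1540, the pair with the lowest p, gave r = -0.41 (permutation p = 0.023, adjusted 0.15) and rho = -0.39. Without 2 mice that r was -0.37. Within a set of 1 treatment and chip the SD was 0.114 for Gabra3, 0.129 for Gabrb1, 0.0784 for Gabrb2, and 0.118 and 0.0999 for the Gabrd probes, next to a median of 0.0918 over all tested probes. Bead sampling alone gave a standard error of 5.1% to 6.2% of the signal at the probes tested, from a median of 36 to 38 beads.

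The gene whose centred pattern was most like that of each subunit was Lgi3, a secreted neuronal protein, for Gabrd from base 1540 (r = 0.70, rho = 0.65, n = 32). For Gabrb1 it was Sfrs5, a splicing factor (r = 0.71, rho = 0.69), for Gabra3 the unnamed transcript 1200003C05Rik (r = 0.68, rho = 0.68), and for Gabrb2 it was Smek2, a phosphatase subunit (r = 0.70, rho = 0.57, and r = 0.56 without control C66 and 1 other mouse). Each r is the highest over all tested probes of other genes and was not tested. These are descriptions over mice that share arrays and chips. No other subunit of the 4 was among the nearest 100 probes of any of them.

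Genes that cluster, move or assist the receptor showed 1 call among 23 probes of 13 tested genes, where 8.18% of all tested probes were called. It was Hap1, a huntingtin partner that helps beta subunits return to the membrane (higher by 0.10, adjusted p = 0.0049 in limma). This probe was dim, with a mean level of 8.36, and on chip 3 it gave 0.081 (adjusted p = 0.37 in limma). A brighter Hap1 probe (mean level 11.43) was higher by 0.21 and not called (adjusted p = 0.10 in limma). Both probes of the GABA-synthesizing enzyme Gad1, named after its values were seen, had differences of 0.30 and 0.27 that missed 1% (adjusted p = 0.017 and 0.018 in limma). They belong to a list of 9 tested probes for GABA synthesis, transport and breakdown, of which 1 other was called. Differences in that list had both signs, from -0.15 to 0.30. None of 5 probes of chloride transporters or their regulating kinase and none of 2 of the GABA-B receptor was called over all arrays in limma (0 and 1 at an unadjusted p below 0.05, as against 3233 of 10187 tested probes in all), with lowest to highest differences of -0.037 to 0.064 and 0.066 to 0.13.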

How the data were processed

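The authors deposited a bead summary table of 32 arrays whose intensity values are the mean bead signal per probe on a linear scale, not normalized between arrays. It also holds, as deposited, a detection p-value per probe and array and, as other values, the number of beads and their standard error. The submitters' notes name lumi and limma; the background step and the build of the probe coordinates are not given in the sources used here, so no genome coordinates are printed. A variance-stabilizing transform after lumi's was recomputed from the bead errors and followed by quantile normalization in R 4.3.3. A probe detected (p-value below 0.01) on 24 or more of the 32 arrays was tested by limma 3.58.1 with Benjamini-Hochberg adjustment, for all arrays without covariates and, for sets of chips, with treatment and chip combined. The number of arrays limits the precision. The named genes are the members, the called genes of the other GABA lists, and the nearest gene of each member; a few genes under it are not reported here. The members, lists and comparisons were chosen with earlier results of these data known. The transform and the limma comparisons were tested on simulated data. Alternatives were log2 signals, normexp (offset 16), median scaling, other detection filters, an FDR of 10%, chip as a random or fixed block, position, array weights and leaving out arrays. 9 marker lists were read: excitatory neuron, interneuron, olfactory bulb, striatum, astrocyte, oligodendrocyte, microglia, endothelium and cerebellar granule cell.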

Additional observations from a re-analysis of the deposited data

Results flagged for a closer look

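For Gabra3, the alpha 3 subunit, the ethanol difference on chip 3 was smaller by 0.51 on the log2 scale than that of chips 1 and 2 from chip 4 (-0.51, standard error 0.091, adjusted p = 8.3e-04 in limma), with the former below 0 and the latter above it. 25 sets of 1 probe, treatment and chip were screened for a mouse lying apart from the rest, and 2 stood out, where chance gives about 1 in 20. Control C66 of chip 4 had the lowest Gabrb2 level (probe from base 3608), 8.12, with the next control at 8.27, and it is the array with the fewest detected probes. Control C55 of chip 3 had a Gabrd level of 9.93 at the probe from base 1376, with the next control at 9.81.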

How the results depend on the processing

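Of the counts of called subunit probes under the alternatives, 48 stayed within 1.5 times the reported count and 10 did not. The 48 include counts of 0 that stayed 0. These are all settings of chip 3 and all settings of its ethanol-treated mice against those of chips 1 and 2. Over all arrays the count of 1 became 0 with probes detected on all arrays (the Gabrb2 probe is not among them), 2 at an FDR of 10%, 0 with chip as a random block and 0 with chip as a fixed block and position. For chips 1 and 2 against chip 4 the 2 became 1 with probes detected on all arrays, and for the gap between sets of chips the 1 became 2 at 10%. Chip 1 against chip 2 and even against odd positions each went from 1 to 0 under median scaling and from 1 to 0 under normexp, chosen after seeing the data: Gabrd from base 1540 gave 0.16 (adjusted p = 0.26 in limma) and 0.34 (0.020), and Gabrd from base 1376 gave 0.093 (0.17) and 0.24 (0.010). On chip 3 the count stayed 0 with each mouse left out in turn.

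Signs turned as follows. With chip and position over all arrays, Gabra3 was -0.18, Gabrd from base 1376 0.052 and from base 1540 -0.048. That fit takes its treatment difference from chip 3 alone and equals the chip 3 fit with position, so the 0.052 given for chip 3 is the same value. On chip 3, Gabrb1 was -0.040 under median scaling and between -0.052 and 0.094 with 1 mouse left out (-0.0038 without A46, -0.015 without C52), and Gabrd from base 1376 was 0.052 with position. Under median scaling Gabrd from base 1376 was -0.021 for chip 1 against 2 and 0.023 for chip 3 ethanol-treated mice against the others, where Gabrb2 was 0.0056; between positions Gabra3 was -0.033 and Gabrd from base 1540 -0.025. Without C66, chosen after seeing the data for positions, Gabrb1 was 0.0015 there. The cause was not tested. Leaving out 1 mouse moved Gabra3 on chip 3 between -0.24 and -0.15 and Gabrb2 between 0.059 and 0.096. Over all tested probes, median scaling gave 371 calls over all arrays, 14.8% of them higher, against 833, 42.6% higher; for chips 1 and 2 against chip 4 it gave 652 against 1548, for the gap between sets of chips 78 (8 higher) against 367 (192 higher), for the controls 579 (570 higher) against 664 (355 higher), and for positions 2 against 404. Chip as a random block gave 68 (19 higher) and chip with position 1. On chip 3 the 15 calls became 0 with normexp or no detection filter, 1 with position, 35 without C66, 261 with its arrays fitted alone, 372 with array weights, and 0 to 27 with 1 mouse left out. No paired analysis was possible because the groups share no replicate numbers.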

Other observations

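Beside the excitatory neuron list, with 4 of 9 probes lower over all arrays, 2 of 11 astrocyte probes were called higher in limma, where 8.18% of all tested probes were called, and the astrocyte level was 10.81 ± 0.069 (SD) in ethanol-treated mice and 10.71 ± 0.062 in controls. 0 probes were called for the other lists, with an unadjusted p below 0.05 for 4 of 11 interneuron, 0 of 6 olfactory bulb, 0 of 5 striatum, 5 of 16 oligodendrocyte, 2 of 11 microglia, 3 of 7 endothelium and 0 of 1 cerebellar granule cell probes in limma. Of all 10187 tested probes, 3233 had such a p.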
